A study of Nematostella vectensis with 47 samples.

Results

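DNA methylation of F1 offspring of the sea anemone Nematostella vectensis was compared between a juvenile polyp and gastrulae of the same cross. The members were all nuclear CpGs with at least 10 valid calls in both libraries, which left 7597719 of the 8433644 nuclear CpGs listed in the 4 Nanopore libraries of the series (90.1%). The father of the cross was an F0 male that had been treated early in development with GSK-3484862 (hereafter, GSK), an inhibitor of the maintenance methyltransferase DNMT1. The study settled on 5 µM GSK and treated its profiled F0 gastrulae for 25 h. The exposure time of this male is not stated. The mother was an untreated F0 female, and the labels give the strain of every library as Massachussets. The F1 gastrulae were whole embryos pooled at 25 hours post-fertilization (hpf), whereas the F1 juvenile was a single whole animal of 4 months. Neither was itself treated with GSK. Both groups hold 1 library, so that growth, the difference between a single genotype and a pool of siblings, cell composition and the library itself cannot be told apart, and no test between stages was possible. Gastrulae of an untreated cross at 25 hpf and sperm of a GSK-treated male, again 1 library each, served as references. The mean of both reference levels is called the midparent level below, although the untreated gastrulae only stand in for the egg and the labels do not say whether the sperm came from the father of this cross. The paper took the genotype of the juvenile's father from a sperm sample. It also set the methylation of single reads in sperm of this male beside that in gastrulae of the cross. The labels do not tie the sperm of either use to this library.

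In cnidarians, as in many invertebrates, 5-methylcytosine (5mC) is concentrated in CpGs inside the bodies of transcribed genes, while promoters and most intergenic DNA are unmethylated. DNMT1 copies the pattern to the new strand after each replication, recruited to hemimethylated DNA by its co-factor UHRF1, and DNMT3 enzymes can add methylation to unmethylated DNA. In a diploid animal, each CpG lies on a maternal and a paternal chromosome. Its level in a single animal therefore combines both copies, and its level in a pool averages the copies of all siblings.

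The question behind the comparison is what changes in the methylome of these offspring during growth. The mCG level, taken as 5mC calls divided by valid calls, was 7.32% in the F1 gastrulae and 6.80% in the F1 juvenile, a difference of -0.52 percentage points with a counting error of ± 0.0036 (95% interval by the normal approximation, 359152315 and 448508069 calls). The interval covers counting error only, and calls on the same read are not independent. When each CpG was given the same weight instead of each call, the difference was -0.21 points. Both levels lay below the midparent level of 8.34%, which is the mean of 12.3% in the untreated cross and 4.43% in sperm over CpGs with 10 calls in all 4 libraries. Over the same CpGs the F1 gastrulae had 7.41% and the F1 juvenile 6.90%. Most CpGs had no methylation at either stage, and 77.2% of the members had 0 5mC calls in both libraries. In all, 90.1% of the members differed by less than 10 points.

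Sequencing depth was a median of 45 valid calls per member CpG in the F1 gastrulae and 55 in the F1 juvenile, and failed calls made up 8.18% and 8.38% of the reads over them. On the mitochondrial genome, which serves as an unmethylated control, the 5mC share was 0.0557% and 0.0403%. 5-hydroxymethylcytosine (5hmC) calls were rare at both stages, with 0.149% of nuclear calls in the gastrulae and 0.124% in the juvenile, against 0.0657% and 0.0490% on the mitochondrial genome. The labelled cross was examined at 7754 CpGs where at least 90% of the sperm reads lacked the reference CpG. In the juvenile, 0.632% of these sites had fewer than 10% of such reads, and in the gastrulae 0%. At least 60% of such reads were found at 95.9% of these sites in the gastrulae and at 66.1% in the juvenile. An unrelated male that lacks the same CpGs could give these shares too. No unrelated library was compared, so the father was not identified by them.

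The mean difference was small in every class of methylated CpG, as defined by the reference libraries. Of the CpGs with 10 calls in all 4 libraries, 675197 were at 80% or more in the untreated cross, here called methylated CpGs. Their level was 65.7% in the gastrulae and 63.8% in the juvenile. Where sperm was below 20%, at 241827 of them, the gastrulae had 48.0% and the juvenile 45.3%, beside a midparent level of 49.7%. Where sperm was at 80% or more, the levels were 90.7% and 89.7%. The 3 classes between them, with sperm at 20 to 40%, 40 to 60% and 60 to 80%, went from 60.2% to 58.1%, from 68.6% to 68.1% and from 79.2% to 77.0%. Both stages lay below the midparent level in all 5 classes, the gastrulae with differences of -3.17 to -1.67 points and the juvenile with differences of -5.12 to -3.66 points. The classes were cut on the same reference levels that make up the midparent level, and the part of this selection in the differences was not tested. Failed calls made up 15.3% of the reads over the members in the untreated cross, and their part was not tested either.

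CpGs outside the methylated class moved little in their mean. At the 464101 CpGs of intermediate level in the untreated cross (20 to 80%), the gastrulae had 27.0% and the juvenile 25.7%. Within this class, CpGs with sperm below 20% were lower in the juvenile (22.8% and 20.4%), whereas those with sperm at 20 to 40% were higher (37.7% and 41.0%). The 6089055 CpGs below 20% in both references were at 0.282% and 0.327%, so these CpGs were almost free of 5mC at both stages. This difference of 0.0446 points was 0.0220 points with 5mC and 5hmC counted together and 0.0258 points without CpGs at which over 10% of reads had another base or a deletion.

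The means hide a change in shape. In the pooled gastrulae the levels of single CpGs spread broadly, whereas in the juvenile they gathered near 0, near 50% and near 100%. At methylated CpGs with sperm at 20 to 80%, 24.9% of CpGs lay between 60 and 70% in the gastrulae and 7.51% in the juvenile. Their share at 90% or more was 4.83% in the gastrulae and 26.2% in the juvenile. The share at 40 to 60% was 24.8% and 34.7%. The standard deviation over these CpGs was 14.3 points in the gastrulae and 24.0 points in the juvenile, around means of 68.1% and 66.5%. Where sperm was below 20%, most CpGs of both stages lay between 40 and 60% (54.1% and 57.4%), but 7.61% fell below 10% in the juvenile, against 1.52% in the gastrulae. Where sperm was at 80% or more, 63.2% and 66.4% of CpGs lay at 90% or more.

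**Figure D1:**
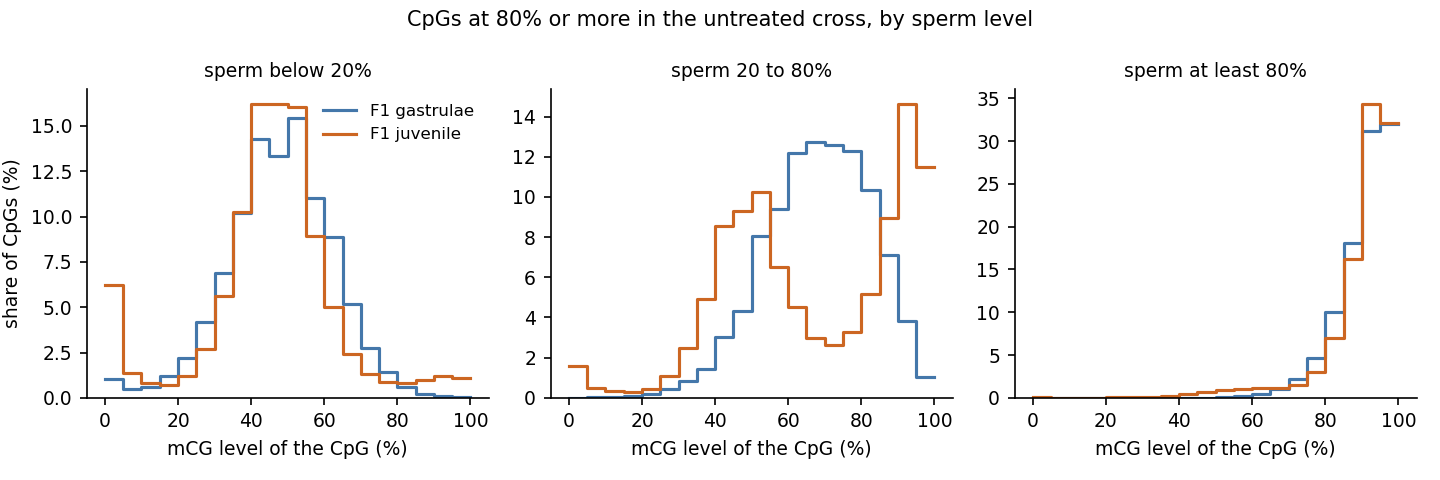
Share of methylated CpGs (vertical axis, in percent) in 5-point steps of their mCG level (horizontal axis, in percent) in the F1 gastrulae and the F1 juvenile, by the level in sperm. In the middle panel the gastrulae form a single broad peak around 60 to 80%, whereas the juvenile has a peak near 50% and another at 90% or more.

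The juvenile had more calls per CpG, and the shapes differed in the same way with equal numbers. With each CpG thinned to 20 calls in both libraries, the spread over methylated CpGs was 21.3 points in the gastrulae and 26.03 points in the juvenile, against 20.5 and 25.7 points with all calls. The share at 90% or more was then 19.8% and 29.4% over all methylated CpGs, against 15.2% and 25.9% unthinned, and 28417 shallower CpGs were left out.

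CpGs of intermediate level in the untreated cross showed the same pattern. Below 10% lay 21.7% of them in the gastrulae and 46.4% in the juvenile. Between 10 and 30% lay 37.7% and 8.49%, and the share at 40 to 60% was 18.7% and 25.3%.

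Single CpGs were then compared by Fisher's exact test on the calls, which compares the reads of both libraries and not the stages. With a Benjamini-Hochberg adjusted p below 0.01 and a difference of at least 25 points, 60817 CpGs were higher and 82401 lower in the juvenile, 0.8% and 1.08% of all members. CpGs called higher had a median of 41.9% in the gastrulae and 90.7% in the juvenile. CpGs called lower had a median of 43.6% in the gastrulae and 0% in the juvenile. Of the CpGs called lower, 72.7% ended below 10% in the juvenile, and of those called higher 53.0% ended at 90% or more. Another CpG called in the same direction lay within 200 bp for 74.0% of the CpGs called higher and 75.7% of those called lower. Neighbouring methylated CpGs lay a median of 34 bp apart and can share reads. The shares to be had from spacing and shared reads were not computed. Among methylated CpGs, those at 20 to 40% in sperm were called most often, with 11.2% higher and 5.67% lower. Next came those at 40 to 60%, with 9.74% and 6.36%. At 60 to 80% in sperm the order was reversed, with 3.49% higher and 9.41% lower, and below 20% it was 1.86% and 3.62%. The CpGs of intermediate level in the untreated cross held 38.9% of all CpGs called higher and 54.5% of those called lower. Where sperm was at 80% or more, 0.274% were called higher and 2.38% lower. The latter CpGs stood at 90.7% in the gastrulae as a class, which leaves little room for a rise of 25 points. The calls rest on this juvenile and this pool, and 13744 and 14793 CpGs passed with a difference of at least 50 points.

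In windows of 1 kb with at least 5 CpGs, 10260 of 240192 were at least 10 points higher in the juvenile and 15130 at least 10 points lower (4.27% and 6.3%). Of the 8016 windows that were methylated in the untreated cross and below 20% in sperm, 68.1% lay between 40 and 60% in the juvenile, against 73.8% in the gastrulae. A level of 65% or more was found in 390 of these windows in the juvenile and in 303 in the gastrulae. A level below 10% was found in 120 and 17 windows. Among the 8987 windows at 80% or more in both references, 653 were at least 10 points lower in the juvenile and 126 higher. The gastrulae had a median of 89.9% in these windows, which leaves little room for a rise of 10 points. Of the 171871 windows below 20% in both references, 562 reached 20% in the juvenile and 276 in the gastrulae.

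The juvenile lay outside the range of both reference libraries more often than the gastrulae. Of 234615 windows, 1221 were at least 10 points above the higher reference in the juvenile (0.520%) and 232 in the gastrulae (0.0989%), and 69 were above it at both stages. The 1221 windows had median levels of 42.6% in the juvenile, 19.2% in the gastrulae, 22.5% in the untreated cross and 3.08% in sperm. At least 10 points below the lower reference were 1939 windows in the juvenile and 237 in the gastrulae.

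Differences between the stages ran in long blocks along chromosomes. In 509 windows of 500 kb with at least 100 methylated CpGs, the juvenile minus gastrula difference ranged from -20.5 to 21.8 points, with a standard deviation of 7.12 points and a median counting error (standard error) of 0.268 points. The juvenile was at least 5 points lower in 198 windows and at least 5 points higher in 92. Over the same windows the gastrulae differed from the midparent level by a mean of -2.27 points, with a standard deviation of 2.80 points in this difference. For the juvenile the mean was -4.27 points and the standard deviation 6.34 points. These CpGs were chosen by a high level in the untreated cross, which is part of the midparent level. The part of this choice in both means was not tested. Between methylated CpGs, the difference was correlated with r = 0.46 for neighbours (median distance 34 bp), 0.27 at about 723 bp and still 0.08 at a median of 1840680 bp, given as a description over CpGs of the same 2 libraries.

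**Figure D2:**
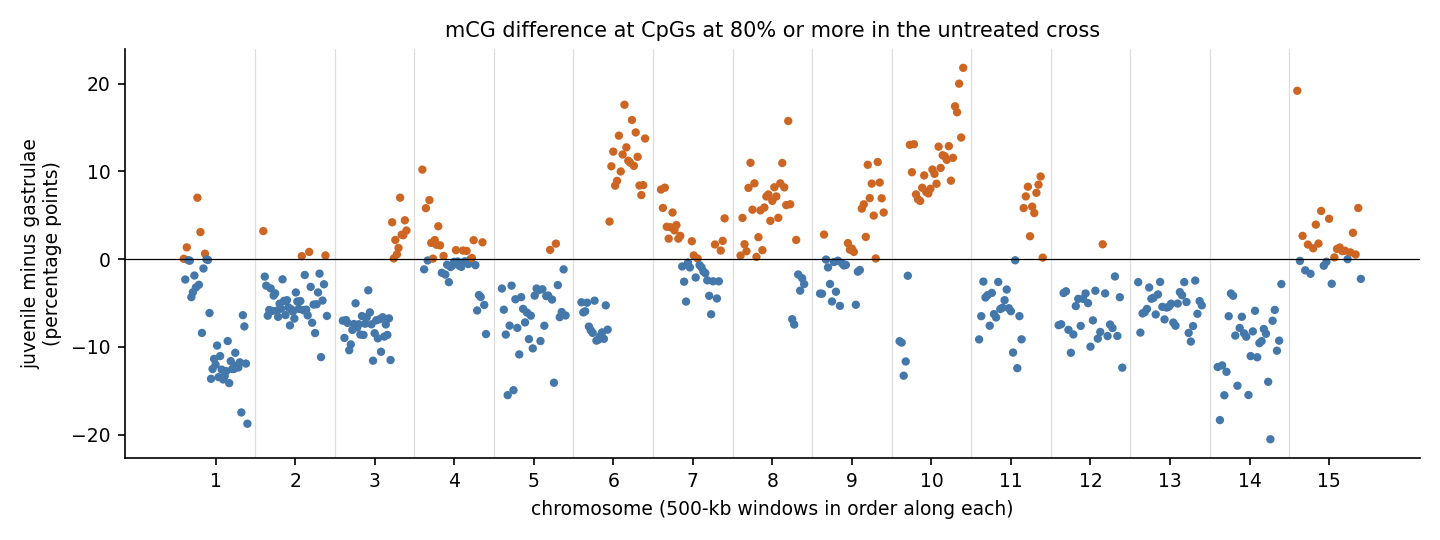
Juvenile minus gastrula mCG difference (vertical axis, in percentage points) at methylated CpGs in 500-kb windows, in their order along each of the 15 chromosomes. Each point is a window, orange above and blue below 0, and runs of 1 colour change sides once on chromosomes such as 6 and 10.

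A single switch point was then fitted on each chromosome as the position that best splits its 100-kb windows, with at least 1 Mb on each side. The fit was chosen after the blocks had been seen and finds a split on any chromosome, so its steps are a description. On 7 of the 15 chromosomes the difference changed by at least 8 points at the switch. The next steps in size were 7.10 points on chromosome 14 and -7.01 points on chromosome 15. The latter was not stable, with -9.48 points in windows of 200 kb and -2.65 points with at least 2 Mb on each side.

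Chromosome 10 had the largest step. Left of the switch, up to 3.4 Mb, methylated CpGs went from 76.0% in the gastrulae to 65.8% in the juvenile, and all 5 windows of 500 kb were lower. To the right they went from 75.7% to 86.9%, and all 27 windows were higher. On chromosome 6, with the switch at 7.6 Mb, the levels went from 66.2% to 58.7% on the left (15 of 15 windows lower) and from 64.0% to 75.2% on the right (20 of 20 windows higher). The gastrulae thus had nearly the same level on both sides, and the juvenile did not.

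The remaining 5 chromosomes had smaller steps of the same form. On chromosome 11 (switch at 11.8 Mb) the difference was -5.90 points on the left and 6.76 on the right. On chromosome 3 (16.1 Mb) it was -8.15 and 2.54 points, and on chromosome 9 (10.8 Mb) it was -1.47 and 7.36 points. The reverse order was found on chromosome 1 (9.4 Mb), with -0.69 points on the left and -12.2 on the right, and on chromosome 8 (13 Mb), with 5.71 and -3.78 points. Chromosomes 2, 5, 12, 13 and 14 were lower in the juvenile along nearly their whole length. Over all methylated CpGs their differences were -4.55, -5.50, -6.34, -5.49 and -9.63 points. Chromosome 4 differed by -0.04 points as a whole, with 2.96 points left and -1.08 points right of its fitted switch. On chromosome 7 (6.7 Mb) the difference was 4.26 points on the left, where all 11 windows of 500 kb were higher. On its right it was -1.26 points, and 16 of 23 windows were lower.

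**Figure D3:**
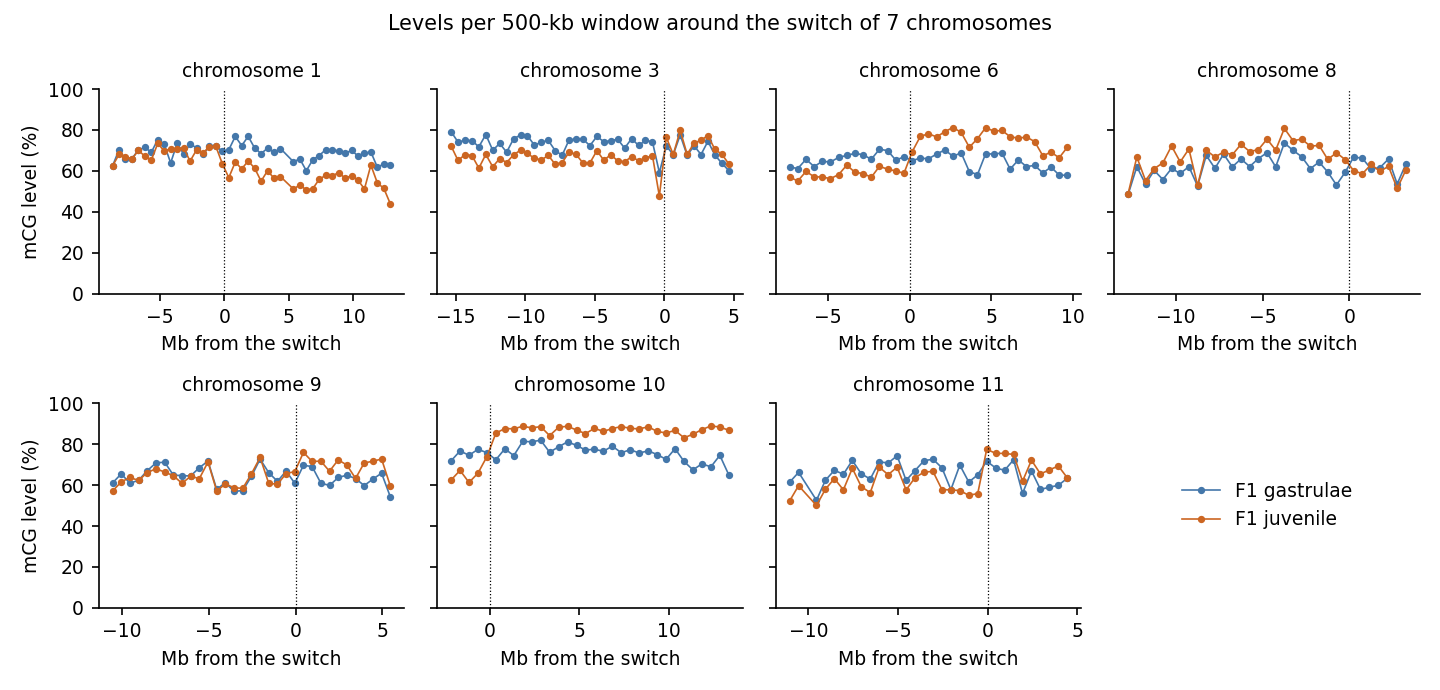
mCG level of methylated CpGs per 500-kb window (vertical axis, in percent) by distance from the fitted switch (horizontal axis, in Mb) on 7 chromosomes. The juvenile moves from below to above the gastrulae on chromosomes 6 and 10 and from level to below them on chromosome 1. The level of the gastrulae also varies between windows, as on chromosome 3, where it goes from 59.2% to 72.1% in the windows next to the switch.

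On the 7 chromosomes with a step of at least 8 points, the steps were largest at CpGs that were partly methylated in sperm. At methylated CpGs with sperm at 20 to 80%, the step was 33.4 points on chromosome 10 and 31.5 points on chromosome 6. On chromosomes 14 and 15, with smaller steps, those at CpGs with sperm below 20% were larger (10.7 and -13.7 points) than those at sperm 20 to 80% (6.57 and -0.71 points). The left side of chromosome 15 held only 2 windows of 500 kb, with differences of 19.2 and -0.20 points. The first of them holds the stretch from 180001 to 310000 described below. On chromosome 14 all 4 windows of the left side were lower, and this side includes the gene LOC5518835 described below. The part of these loci in the steps was not tested. On chromosomes 10 and 6, the step at CpGs with sperm below 20% was 4.84 and 4.91 points, and at CpGs with sperm at 80% or more 3.30 and 3.197 points. On the left of chromosome 6, 57.4% of the partly methylated CpGs lay at 40 to 60% in the juvenile and 7.60% at 90% or more. On the right these shares were 9.09% and 52.7%. The gastrulae had 33.2% and 35.1% at 40 to 60%, and 3.47% and 3.01% at 90% or more. On the right of chromosome 10, 62.3% of the partly methylated CpGs lay at 90% or more in the juvenile, against 9.82% on the left, and 5.56% and 5.82% in the gastrulae. In the juvenile, most of the partly methylated CpGs of chromosomes 6 and 10 thus lay at 90% or more on the right. On the left, most of them lay at 40 to 60%. On chromosome 3 these shares were smaller, with 35.8% and 46.5%, and on chromosome 9 they were 36.9% and 42.3%.

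**Figure D4:**
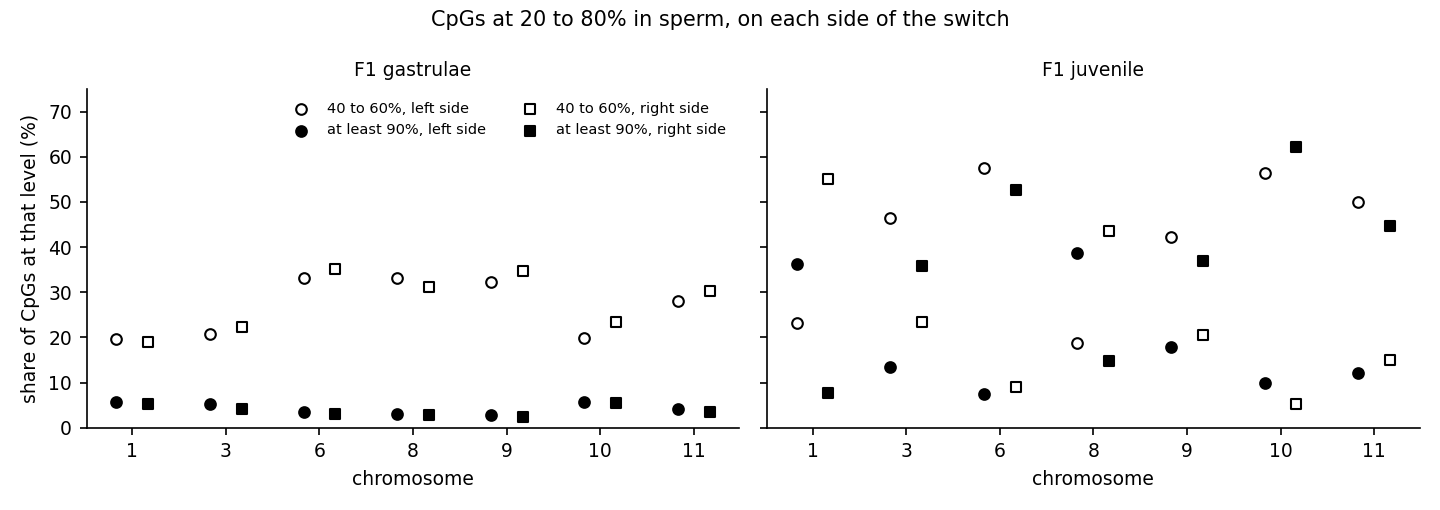
Share of the methylated CpGs with sperm at 20 to 80% (vertical axis, in percent) that lay at 40 to 60% (open) or at 90% or more (filled), left (circles) and right (squares) of the switch on 7 chromosomes (horizontal axis). In the gastrulae both sides nearly coincide, whereas in the juvenile the open and filled symbols change places across the switch on every chromosome shown.

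The step was found inside and outside of genes. On chromosome 6 it was 19.3 points at methylated CpGs inside annotated genes and 15.5 points outside, and on chromosome 10 it was 21.5 and 18.6 points. Juvenile calls per methylated CpG were 52.8 and 53.0 to the left and right on chromosome 6 and 51.2 and 52.4 on chromosome 10. On chromosome 1 they were 49.8 and 51.8, and on chromosome 8 they were 52.9 and 48.5. The part of depth in the steps was not tested. The sperm level of all methylated CpGs was 47.1% and 41.2% on the sides of chromosome 6 and 64.0% and 64.5% on those of chromosome 10.

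Reads that lack the reference CpG show sequence differences and do not use the methylation calls. At 85176 CpGs where 40 to 60% of the sperm reads lacked the CpG, 28.1% had fewer than 10% of such reads in the juvenile and 36.7% had 40 to 60%. In the gastrulae 3.48% had fewer than 10% of such reads and 37.5% had 40 to 60%, so that the share in the middle was about the same at both stages and the stages differed mainly below it. Between 10 and 40% of such reads were found at 8.20%, 16.9% and 18.4% of the sites in the gastrulae, in steps of 10 points, and at 6.61%, 8.40% and 11.7% in the juvenile. At least 60% of such reads were found at 15.5% and 8.49%. Whether these sites and the methylation blocks share their boundaries was not tested.

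Gene bodies, where most 5mC of this genome lies, differed little as a whole. Of 21481 gene bodies with at least 20 CpGs, 372 were at least 10 points higher and 619 at least 10 points lower in the juvenile (1.73% and 2.88%). The 9694 gene bodies at 10% or more in the untreated cross had a median level of 27.0% in the gastrulae and 25.8% in the juvenile, with a median difference of -1.16 points, and 67.7% of them differed by less than 5 points. Among them, 337 were higher and 606 lower (3.48% and 6.25%). Of the 11729 gene bodies below 10%, 31 were higher and 3 lower. A gene body with almost no 5mC can rise by 10 points but cannot fall by as much. Chromosomes differed in the direction of their called genes. Of the 746 methylated genes on chromosome 6, 67 were higher and 24 lower, and of the 621 on chromosome 10, 55 were higher and 17 lower. Of the 850 on chromosome 1, 109 were lower and 9 higher. Chromosome 5 held 56 lower and 1 higher of 510, and chromosome 14 held 57 and 2 of 467.

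Along 6727 methylated protein-coding genes whose direction could be read from a start-site cluster, both stages had the same profile. The level was 3.48% in the gastrulae and 3.22% in the juvenile in the 1 kb before the gene. It rose to 43.5% and 41.3% in the third of 10 equal parts of the gene body and fell to 7.67% and 7.48% in the last. The juvenile was lower in every part, with differences of -2.24 to -0.18 points. The untreated cross had 63.2% in the third part, and both F1 stages lay below it in every part.

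The difference was also similar across expression levels. Methylated genes were split into 10 equal groups by their mean CPM in 3 RNA-seq libraries of gastrulae kept in DMSO. The median difference ranged from -1.35 points in the highest group to -1.005 points in the third. The share of genes that differed by at least 10 points was 17.04% in the lowest group, where 65 genes were higher and 87 lower, and 5.61 to 9.19% in the others. The least expressed genes were also the most spread, with a standard deviation of 9.11 points against 5.16 to 6.13 in the other groups. By length, 17.6% of the 629 methylated genes under 2 kb differed by at least 10 points, and 7.20 to 10.2% of the longer ones did. By annotation, 12.95% of 687 methylated long non-coding RNA genes were lower and 8.30% higher, against 5.60% and 3.03% of 8921 protein-coding genes. Short genes hold fewer CpGs, and the part of this in the spread was not tested.

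Regulatory DNA changed little where it was unmethylated. The accessible peaks come from ATAC-seq of gastrulae and were merged by the authors. The ATAC-seq libraries of the series include GSK-treated gastrulae and F1 gastrulae of treated parents, and peaks were not separated by library here. Peaks were unmethylated (below 20%) in the untreated cross in 30866 cases with at least 3 CpGs, and their level was 0.817% in the gastrulae and 0.808% in the juvenile. Of these, 116 were at least 10 points higher and 97 lower. Start sites of untreated gastrulae that lay in unmethylated DNA had 0.386% and 0.436% within 250 bp, and 10 of 12620 were at least 10 points higher and 4 lower. A peak or start site with almost no 5mC cannot fall by 10 points. At 325 start sites in DNA at 20% or more, the level was 54.6% in the gastrulae and 48.9% in the juvenile, and 90 were lower and 28 higher. At 2084 peaks at 80% or more in the untreated cross, the level was 60.3% and 58.3%. In windows at 50% or more in the untreated cross, the spread of the difference grew from 11.4 points with 5 to 9 CpGs per kb to 16.2 points with 40 to 79 CpGs per kb, and was 13.3 points in the 66 windows with 80 or more.

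The gene bodies with the 10 largest rises included 4 from a single stretch of chromosome 15. All genes are named by their identifier, since no further annotation was used. Some of the named genes overlapped another annotated gene, so that their CpGs can lie in both. These were LOC116602157, LOC125570209 and LOC125561885 among the rises, and LOC116603331, LOC116612113 and LOC125562962 among the falls. LOC125560596 on chromosome 15 (269663 to 272739, build jaNemVect1.1) had 12.5% in the gastrulae, 73.6% in the juvenile, 39.2% in the untreated cross and 0.129% in sperm over 67 CpGs. LOC116618839 (123 CpGs) had 27.9% and 81.1%, and LOC125560680 (260 CpGs) had 42.6% and 87.6%. The pseudogene LOC125560691 (38 CpGs) had 54.3% and 91.3%. In the first 3 the juvenile lay above both references.

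Their surroundings changed with them. In 13 consecutive windows of 10 kb, from 180001 to 310000 on chromosome 15, the juvenile was higher by 11.3 to 60.2 points, and the stretch as a whole had 30.3% in the gastrulae and 63.9% in the juvenile. It had 51.4% in the untreated cross and 6.10% in sperm. The stretch overlapped 15 annotated genes. Coverage was low there in every library, with 31.4 juvenile calls per CpG against 71.0 on the whole chromosome, 38.8 against 58.3 in the gastrulae and 44.98 against 71.1 in sperm. Its part in the result was not tested.

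Other rises were scattered. LOC5510471 on chromosome 8 (14132972 to 14140433) went from 41.7% to 82.6% over 92 CpGs, with 72.3% in the untreated cross and 2.59% in sperm, but this rise of 41.0 points depends on which CpGs are counted. Over the 259 CpGs of this gene with at least 10 calls in both F1 libraries, the level went from 20.8% to 34.5%, a difference of 13.7 points, and with at least 5 calls in all 4 libraries the difference was 31.97 points. LOC125570209 on chromosome 8 went from 47.4% to 85.2%, and LOC125573834 on chromosome 11 from 11.9% to 55.9%, where the juvenile had 14.5 calls per CpG. Another 3 genes ended near 50%, namely LOC116602157 (9.35% to 48.2%) and the long non-coding RNA gene LOC125561885 (12.1% to 48.3%), both on chromosome 4, and LOC125567924 on chromosome 6 (16.8% to 53.3%). In LOC125567924 the juvenile was far above the untreated cross (12.8%) and sperm (2.16%). The protein-coding genes among the rises had means of 0.0569 to 7.17 CPM in the DMSO gastrulae, and those among the falls 0.0689 to 27.5 CPM.

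Of the 10 largest falls, 7 ended below 10% and the others between 16.5% and 30.02%. LOC116603331 on chromosome 12 (13787388 to 13791922) went from 55.6% to 4.94% over 46 CpGs, with 70.6% in the untreated cross and 3.17% in sperm, and the gastrulae had only 13.6 calls per CpG there. The pseudogene LOC125573739 on chromosome 11 went from 45.04% to 0.329%, and sperm had 21.4%. LOC125573200 on chromosome 10 had 34.0% in the gastrulae and 0.0% in the juvenile and in sperm. LOC125562962 and LOC116620915 on chromosome 5 and LOC125557517 on chromosome 12, all long non-coding RNA genes, ended at 1.61%, 4.33% and 2.78%. The difference in LOC116620915 was -36.5 points over 129 CpGs and -7.14 points over the 12 CpGs with at least 20 calls in all 4 libraries.

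The longest of these genes was LOC5518835 on chromosome 14 (1568877 to 1611993), with 1285 CpGs. Its level was 40.8% in the gastrulae and 7.27% in the juvenile, below both the untreated cross (54.0%) and sperm (12.5%). Among the named genes with counts it was the most expressed, with 36.7, 30.1 and 15.8 CPM in the 3 DMSO libraries. LOC116612113 on chromosome 11 went from 61.5% to 16.5%, with 13.5 juvenile calls per CpG, LOC116619385 on chromosome 12 from 53.7% to 17.6%, and the pseudogene LOC116619125 on chromosome 4 from 67.3% to 30.02%.

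**Figure D5:**
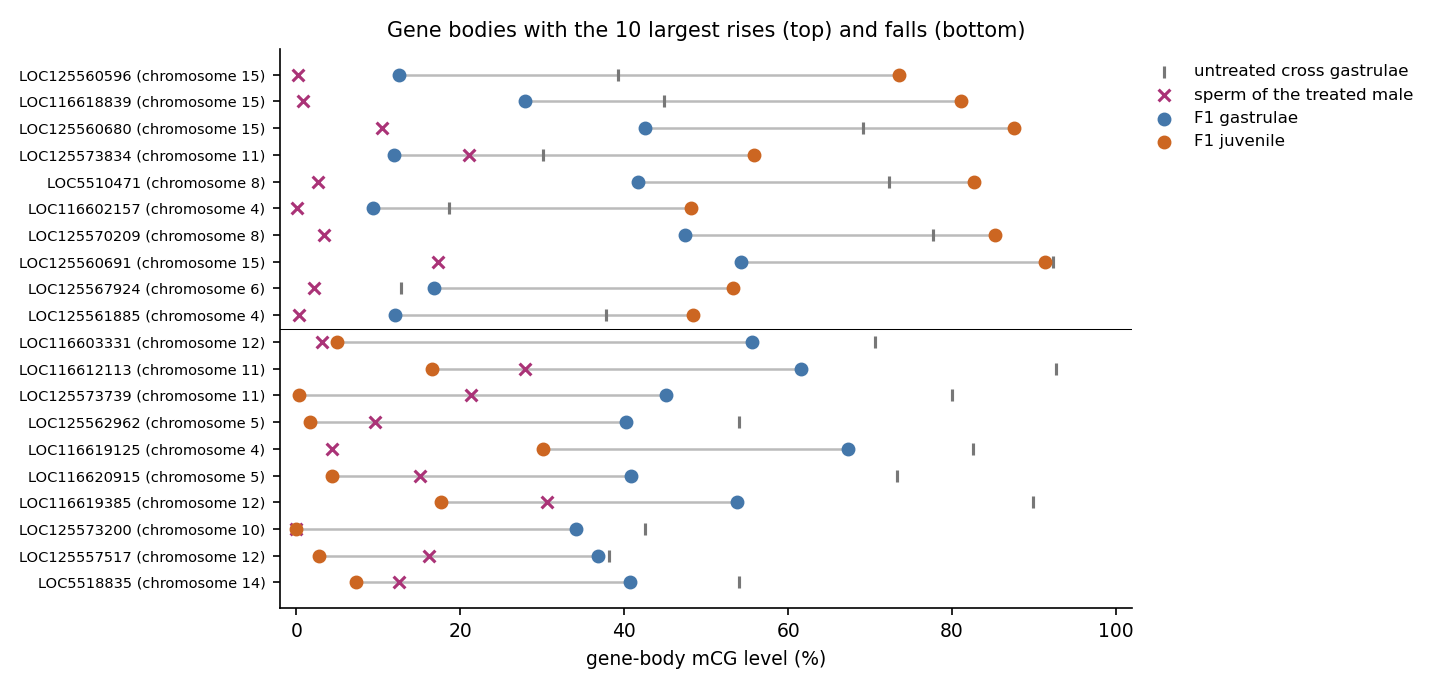
Gene-body mCG level (horizontal axis, in percent) of the genes with the 10 largest rises and the 10 largest falls, 1 row per gene, in the F1 gastrulae, the F1 juvenile, the untreated cross gastrulae and sperm. The juvenile lies above both references in 9 of the 10 rises and at or below 30.02% in all 10 falls.

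The 1-kb windows with the largest differences gave a finer view. On chromosome 15, the window from 237001 to 238000 outside annotated genes went from 16.2% to 86.5% over 30 CpGs, with 0.370% in sperm. The window from 269001 to 270000 in LOC125560596 went from 14.04% to 80.4%, and that from 240001 to 241000 from 16.6% to 82.8%. On chromosome 11, the window from 16119001 to 16120000 in LOC116611779 went from 28.7% to 94.2%. A window at 4875001 on chromosome 15 went from 17.6% to 83.8%, but its coverage was uneven, with 146 calls per CpG in the gastrulae, 329 in sperm and 26.5 in the juvenile.

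Among the falls, 3 of the 5 windows were neighbours in LOC5520018 on chromosome 3, from 12183001 to 12186000. They went from 58.3% to 0.460%, from 66.9% to 0.0% and from 67.9% to 0.0%, over 15, 18 and 22 CpGs, while sperm had 26.2%, 36.8% and 49.8%. The juvenile thus had almost no 5mC calls there, whereas the other 3 libraries did. In the window from 14407001 to 14408000 on chromosome 2 in LOC116604541, 62.0% in the gastrulae stood against 1.90% in the juvenile, and sperm had 1.84%. Depth was uneven in this window, with 21.2 calls per CpG in the gastrulae and 55.7 in the juvenile. The windows in LOC5520018 had 26.6 to 33.6 calls per CpG in the gastrulae and 54.7 to 59.5 in the juvenile. In the window from 12493001 to 12494000 on chromosome 13 in LOC5519473, the level went from 87.7% to 28.2%.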

How the data were processed

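Genomic DNA of whole F1 gastrulae, a whole F1 juvenile, untreated cross gastrulae and sperm was sheared and sequenced by the authors on PromethION R10.4.1 flow cells with a ligation library. Per the study's methods, 5mC and 5hmC were called with Dorado 0.7.2 while mapping to jaNemVect1.1, and calls were extracted with Modkit 0.5.0. The files hold each CpG once, with no strand. The deposited values are counts of valid, 5mC, 5hmC, failed and mismatched calls per CpG, with no normalization. A read counts as lacking the CpG where it shows another base or carries no call. For RNA-seq, the authors deposited unscaled gene counts, used here as CPM. The deposited CAGE-seq values are a normalized signal per start-site cluster, of which only the positions were used. Of the per-sample columns of the count table, 0 were left unused.

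Levels were computed in Python 3.11.15 with numpy 2.4.6 and pandas 2.3.3. CpGs needed 10 valid calls in both libraries, and in all 4 where references are used. Single CpGs were compared by two-sided Fisher's exact test with Benjamini-Hochberg adjustment over all members, and the test and sums were tested on simulated data. Windows and genes were called from the size of the difference alone. The named genes are the 10 largest rises and 10 largest falls among 9624 gene bodies with at least 20 CpGs called in all 4 libraries and at least 10% mCG in the untreated cross. The named windows are the 5 largest each way among 197961 windows with at least 10 CpGs of at least 20 calls in all 4. The members, lists and thresholds were chosen with earlier results of these data known, and the switch points, the thinning, the biotype, length and stretch summaries after seeing the data. The direction of a gene was taken from a start-site cluster within 500 bp of 1 end only. The alternatives were other coverage minima, 5mC and 5hmC together, exclusion of CpGs with another base or high depth, other thresholds and other window sizes. Gene groups and the DNA methylation genes by product name, and DNA sequences, were not analysed here. Genes are those of RefSeq on jaNemVect1.1, and 19206 of the 19231 counted genes matched.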

Additional observations from a re-analysis of the deposited data

How the results depend on the processing

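No paired analysis was possible because each group holds 1 library, and for the same reason no replicate could be left out. The direction of every result below was the same under all alternatives. Because the counting intervals of the levels are very narrow, most small shifts lie outside them. The global difference was -0.506 points with at least 20 valid calls, -0.510 without CpGs with another base or a deletion in over 10% of reads, -0.484 without CpGs over 2 times the median depth, -0.543 with 5mC and 5hmC together and -0.214 as the mean over CpGs. At methylated CpGs with sperm below 20% it was -2.81, -2.58, -2.66 and -2.79 points with at least 5 calls, at least 20 calls, the exclusion of other bases and thresholds of 50% and 10%. At methylated CpGs with sperm at least 80% it was -0.98, -0.96, -0.86 and -0.89 points with at least 20 calls, the exclusion of other bases, 5mC and 5hmC together and the other thresholds. At intermediate CpGs it was -1.38, -1.40, -1.48 and -1.07 points with at least 5 calls, both exclusions and the other thresholds. At unmethylated CpGs it was 0.0498, 0.0373, 0.0258, 0.0312, 0.0220 and 0.0536 points with at least 5 calls, at least 20 calls, both exclusions, 5mC and 5hmC together and the other thresholds, around 0.0446 points. Inside genes, methylated CpGs differed by -2.03, -1.84, -1.79 and -1.92 points with at least 5 calls, at least 20 calls and both exclusions. Nuclear 5hmC differed by -0.0248, -0.0246 and -0.0236 points with at least 20 calls and both exclusions.

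Counts followed their thresholds. With a difference of at least 50 points, 13744 CpGs were higher and 14793 lower, and with the difference alone 137613 and 160978. At least 20 points were found in 3283 and 4832 windows and in 69 and 70 gene bodies. Windows of 500 bp gave 18097 higher and 24815 lower, and windows of 2 kb gave 4695 and 7091. The count of chromosomes with a step of at least 8 points was 6 to 8, with 6 where CpGs with another base were left out and chromosome 9 had 7.85 points. The fitted switch stayed within 0.1 Mb on these 7 chromosomes. The level of a single CpG rests on a median of 45 and 55 calls.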
